A study of Mus musculus with 24 samples.

Results

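The 10 long noncoding RNAs (lncRNAs) described here are Malat1, Neat1, Meg3, Rian, Mirg, Miat, Snhg11, Snhg14, Gas5 and Snhg1. They were taken by name from a list of lncRNAs known in neurons. The list was drawn up with Malat1 already seen to be lower in vehicle-treated Tsc2+/- slices, so the vehicle comparison of the genotypes chose it and is given below as a description, without a test. All 10 were rows of the RNA table, which has 23845 rows, and all 10 passed the filter on low counts that left 14516 genes. Only 1 of them, Snhg11, was a row of the footprint table, which has 20436 rows and counts reads within coding sequence.

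Steady-state RNA and ribosome-protected fragments (RPFs, or footprints) were sequenced from hippocampal slices of WT and Tsc2+/- male mice aged 28 to 42 days. The Tsc2+/- animals carry 1 copy of Tsc2 in every cell: a CMV-driven Cre had deleted the floxed allele in the germline, and the line was bred on the C57BL/6J background together with WT controls. Slices of both genotypes, from which CA3 had been cut away, received either vehicle (artificial cerebrospinal fluid) or 100 µM DHPG for 5 min. DHPG activates the group I metabotropic glutamate receptors mGluR1 and mGluR5. Every slice then received cycloheximide, which stalls ribosomes, at 100 µg/ml, and slices of several mice were pooled into each library. The 4 groups of slices, WT vehicle, WT DHPG, Tsc2+/- vehicle and Tsc2+/- DHPG, had 3 RNA libraries and 3 footprint libraries each.

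Long noncoding RNAs are transcribed and usually spliced like mRNAs but are not known to act through a protein. Malat1 and Neat1 stay in the nucleus, where Malat1 gathers in splicing speckles and Neat1 is the scaffold of paraspeckles. Meg3, Rian and Mirg are expressed from the maternal chromosome of the imprinted Dlk1-Dio3 domain, and each holds genes of small RNAs within its span. Miat, also called Gomafu, forms its own nuclear domains in neurons. Snhg11, Snhg14, Gas5 and Snhg1 are host transcripts whose introns release small nucleolar RNAs (snoRNAs). Snhg14 runs antisense to Ube3a from the paternal chromosome, and Gas5 and Snhg1 belong to the hosts whose spliced RNA is bound by ribosomes and then degraded.

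The members lie on 6 chromosomes. Coordinates are those of the RefSeq annotation of GRCm38.p6, the assembly also named mm10, and each of the 10 genes is annotated as lncRNA. Malat1 (chr19:5795690-5802672, minus strand) has 1 exon of 6983 bp, and Neat1 (chr19:5824708-5845480, minus strand) lies 22.0 kb away from it. Meg3 (chr12:109540996-109571729), Rian (chr12:109603945-109661716) and Mirg (chr12:109734981-109749458) follow each other on the plus strand. Miat is at chr5:112213228-112228948 on the minus strand and Snhg11 at chr2:158375713-158386474 on the plus strand. Snhg14 (chr7:59272737-60450177, minus strand) spans 1177441 bp with 172 exons. Gas5 (chr1:161034601-161038539) and Snhg1 (chr19:8723487-8726326) are compact genes on the plus strand. RefSeq places 206 snoRNA genes inside Snhg14 on its strand, 11 inside Rian, 8 inside Gas5, 8 inside Snhg1 and 2 inside Snhg11.

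The sequence at the 5′ end matters for the snoRNA hosts. mRNAs that answer to mTOR, the kinase that the Tsc2 protein restrains, often begin with a terminal oligopyrimidine (TOP) stretch, a C followed by further C or T bases. The annotated starts of Gas5, Snhg1 and, for comparison, Malat1 and Miat are shown from RefSeq, 30 bases each and 5′ to 3′, with bases before the start in lower case and the transcribed bases in capitals. The windows are chr1:161035156-161035185 (plus strand) for the Gas5 start that carries the stretch, chr19:8723477-8723506 (plus) for Snhg1, chr19:5802653-5802682 (minus) for Malat1 and chr5:112228929-112228958 (minus) for Miat.
Gas5: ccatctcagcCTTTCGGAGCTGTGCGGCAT
Snhg1: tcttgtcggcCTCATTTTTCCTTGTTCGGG
Malat1: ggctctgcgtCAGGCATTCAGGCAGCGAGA
Miat: tcgcagtagcCCCTTTGTGAGGCGCGGGAG

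From its start site Gas5 had an unbroken run of 5 pyrimidines, Miat of 6, Snhg1 of 3 and Malat1 of 1. A start with C and at least 4 further pyrimidines was found at 823 of 32851 RefSeq starts (2.505%), and Gas5 and Miat were the members with one. A second annotated Gas5 start, and the starts of the other members matched, held none. Other elements were searched on both strands in the 300 bases around each start. CACGTG, the E-box, was at none of the members' starts matched, beside 7.15% of all starts. TATAAA, the TATA box, was at 1 start of Meg3 and at that of Snhg1, beside 13.616% of all starts. The last was the palindrome TGACGTCA, the full cyclic AMP response element, which is bound by the activity-regulated factor CREB. It was present at 588 of the 32851 starts (1.79%), among them 1 of the starts of Gas5 and 1 of Meg3. These matches are shown in capitals within 30 bases, at chr1:161035109-161035138 (plus strand) for Gas5, 46 bases before its start, and at chr12:109540928-109540957 (plus strand) for Meg3, 57 bases before its start. A match is a description of letters and not evidence of binding.
Gas5: gctttgcgtctTGACGTCAcgaagacctta
Meg3: gcagaatgcgcTGACGTCAaagaccacccc

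A further stretch was looked up in Malat1. The RNA libraries were made from RNA selected on poly(A) beads, and the 3′ end of mature Malat1 is a triple helix in place of a poly(A) tail. Within the Malat1 transcript the longest run of A was 12 bases, at 298 bases before the annotated end (chr19:5795978-5796007, minus strand), shown with its run in capitals. The longest run in Neat1 was 7 bases and in Meg3 16 bases. Whether such a run took part in the capture of Malat1 was not tested.
Malat1: ctagctttAAAAAAAAAAAAgcaaaagacg

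The microRNAs inside the Dlk1-Dio3 transcripts show what Mirg hosts. RefSeq placed 10 microRNA genes within Mirg, 3 within Rian and 2 within Meg3 on their strand. A separate set of microRNA sequences gave 19 mature microRNAs with 18 different seeds within Mirg, 6 within Rian and 3 within Meg3. A seed, bases 2 to 8 of the microRNA, is the part that pairs with targets, and only miR-453 and miR-496a-5p shared one. They are shown with the seed in capitals, together with miR-410-3p, which has a seed of its own. They lie at chr12:109735669-109735692, chr12:109739132-109739152 and chr12:109743764-109743784, all on the plus strand. The RNA libraries measured the long host transcript and not these small RNAs.
miR-453: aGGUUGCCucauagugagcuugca
miR-496a-5p: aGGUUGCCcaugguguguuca
miR-410-3p: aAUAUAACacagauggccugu

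RNA libraries held 14801679 to 24067838 counts and footprint libraries 5296006 to 13613673. The targeted gene followed the labels. Mean Tsc2 was 191 and 205 CPM (reads scaled by library size and TMM) in WT slices with vehicle and with DHPG, and 134 and 132 CPM in Tsc2+/- slices. It was lower in Tsc2+/- by the edgeR quasi-likelihood test (log2 fold change -0.52 ± 0.0542 SE in vehicle and -0.63 ± 0.0543 in DHPG, adjusted p = 2.03e-07 and 6.41e-10). The summed level of 4 CA1 markers was 1614 to 1786 CPM, against 75.7 to 100.0 for 4 CA3 markers and 22.1 to 53.1 for 4 dentate markers, and of 4 choroid plexus markers Otx2 was at 0 in all 12 RNA libraries, while the sum of the 4 was 15.4 to 24.5 CPM. In the footprint libraries 97.9% to 98.5% of the non-zero counts of replicates 2 and 3 were even, against 48.2% to 49.0% in replicate 1.

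Per length, Rian and Malat1 stood far above the other members. In WT vehicle slices the level per kilobase of merged exon was 141 ± 1.79 CPM per kb for Rian (SD, n = 3, as for all levels given so) and 98.7 ± 13.5 for Malat1. Gas5 followed at 34.3 ± 4.52. Snhg1 (13.2 ± 0.992), Meg3 (13.1 ± 1.72) and Snhg11 (12.0 ± 1.16) came next, and their ranges overlapped, so these 3 could not be put in order. Miat had 4.81 ± 0.705, Mirg 1.81 ± 0.572, Snhg14 0.361 ± 0.0734 and Neat1 0.203 ± 0.0479 CPM per kb. Apart from those 3, each member's range in WT vehicle lay clear of the next. The 10 members together took 0.113% to 0.159% of the counts of a library, and Malat1 and Rian made up 76.7% to 81.6% of this share.

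**Figure D1:**
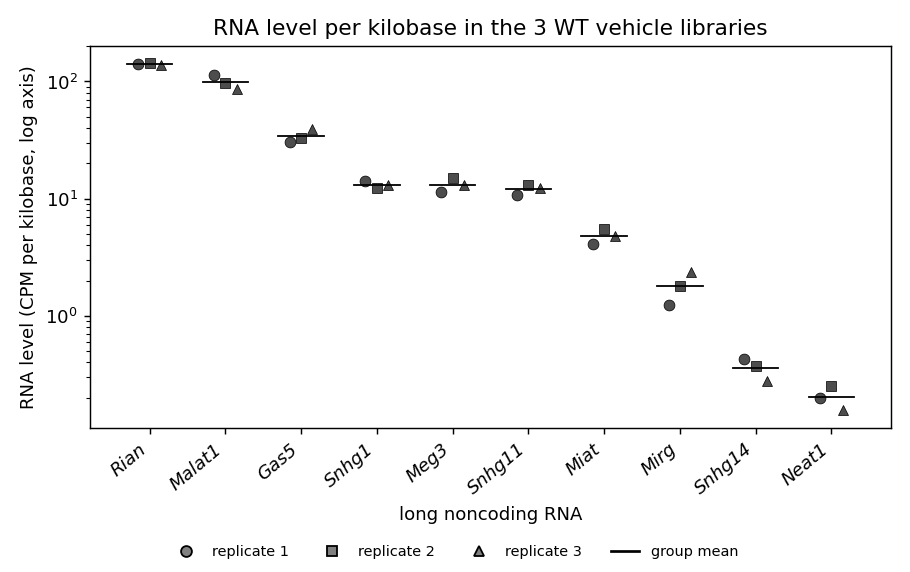
RNA level of each member in the 3 WT vehicle libraries, in CPM per kilobase of merged exon on a log axis, with 1 symbol per replicate number and the group mean as a bar. Rian (141) and Malat1 (98.7) lead, Snhg1, Meg3 and Snhg11 lie together near 12 to 13.2, and Neat1 is lowest at 0.203.

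Counting error did not limit Malat1. It had 9156 to 16536 counts in a library, for which counting alone gives a coefficient of variation below 0.993%, while its libraries varied by 13.7% to 17.2% within a group. Rian, with 7421 to 12422 counts, varied by 1.27% to 7.43%. At the other end Mirg had 23 to 63 counts and Neat1 62 to 127, with a counting coefficient of variation of 14.4% to 17.9% and 10.3% to 10.8%. The SE of a log2 difference was 0.170 to 0.294 for Mirg, Neat1, Snhg14 and Snhg1, against 0.0654 to 0.0655 for Malat1.

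Malat1 RNA was 787, 682 and 599 CPM in the 3 WT vehicle libraries, in the order of replicates 1 to 3, and 581, 443 and 491 CPM in Tsc2+/- vehicle. After DHPG it was 684, 516 and 511 CPM in WT and 564, 523 and 406 CPM in Tsc2+/-. All WT vehicle libraries lay above all Tsc2+/- vehicle libraries, and replicate 1 was the highest library in 4 of 4 groups. The vehicle difference that chose it was -0.45 ± 0.0654 (SE, log2 fold change), a fold of 0.734. It was inside the call at an adjusted p under 0.1 in 14 of 21 alternatives and outside it in 7. Without the replicate number in the model the value was -0.45 with an SE of 0.179, outside the call, and after ComBat and DESeq2 it was -0.38 ± 0.121, also outside. The other 5 were the fits without WT vehicle replicate 1 (-0.46), 2 (-0.41) or 3 (-0.47), without Tsc2+/- vehicle replicate 1 (-0.44) and without replicate 1 of every group (-0.45).

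In the slices given DHPG, which the choice of Malat1 did not use, its genotype difference was -0.19 ± 0.0655 (log2, 95% interval -0.32 to -0.0654), with Tsc2+/- below WT in 2 of 3 same-numbered pairs and overlapping ranges. This difference did not pass the test over all genes (edgeR, adjusted p = 0.838). Its lowest adjusted p over the alternatives was 0.129, without Tsc2+/- DHPG replicate 2, and the log2 value ranged from -0.30 to -0.12. Its unadjusted p was 0.00754 with the replicate number in the model, 0.306 without it and 0.103 after ComBat and DESeq2. Malat1 was also below vehicle after DHPG in 3 of 3 WT pairs (-0.28 ± 0.0654), with overlapping ranges, and near vehicle in Tsc2+/- (-0.0259 ± 0.0655, from -0.16 without replicate 2 to 0.0990 without replicate 3). These 2 values have no test, because they share the vehicle libraries that chose the gene.

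Cell type markers were summed in the same libraries. The 5 pan-neuronal markers gave 10454 to 11382 CPM in WT vehicle and 11367 to 12424 CPM over the other 9 libraries, so the group highest in Malat1 on average was the lowest in these genes. WT vehicle was also lowest on average for CA1, CA3, astrocyte, oligodendrocyte (4883 CPM, against 5069 to 5426 in the other groups), oligodendrocyte precursor and microglia markers. It was not lowest for interneuron (840 CPM, against 830 in Tsc2+/- vehicle), dentate, endothelial, choroid plexus or blood markers. The 3 blood genes measured, of 4 listed, gave 20.4 to 26.1 CPM in WT vehicle and 2.50 to 16.0 CPM in Tsc2+/- vehicle. None of the pan-neuronal or blood genes was at 0, and the part of these cell types in the Malat1 values was not tested. In slices, fewer cells of a type and less RNA per cell cannot be told apart. Per the study's methods the slices were lysed with a detergent and passed through a needle, and the lysate was cleared by centrifugation. Whether nuclei stayed whole, and how much nuclear RNA each library retained, was not measured. A list chosen for this held 13 genes with transcripts known to keep introns and stay in the nucleus. They summed to 515 to 532 CPM in WT vehicle, 507 to 515 in WT DHPG, 501 to 528 in Tsc2+/- vehicle and 494 to 512 in Tsc2+/- DHPG. Reads were counted over whole annotated transcripts, so these sums do not separate intron-retaining from spliced mRNA. They cannot show how much nuclear RNA was retained, and nothing is read from them.

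**Figure D2:**
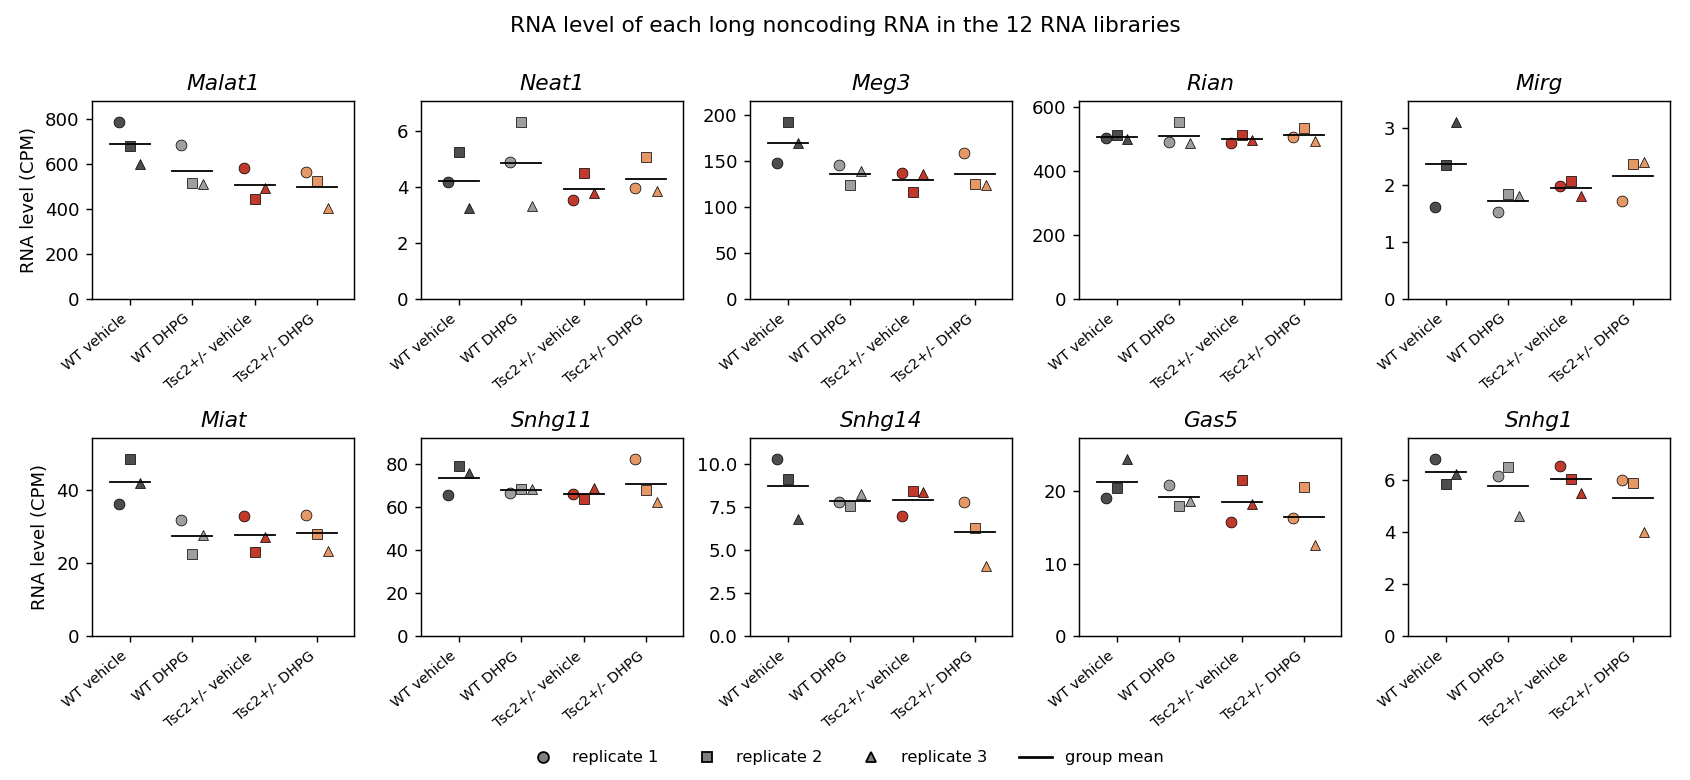
RNA level of each of the 10 lncRNAs in CPM (vertical axes start at 0) in the 4 groups, with 1 symbol per replicate number and the group mean as a bar. All 3 WT vehicle values of Malat1, Meg3 and Miat lie above the Tsc2+/- vehicle values, and Rian stays between 487 and 555 in all 12 libraries.

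Neat1, the neighbour of Malat1, was the member with the lowest level per kilobase of merged exon, taken over 20773 bp. RefSeq gives it 2 transcripts, and which of them the reads came from was not measured, so its rank per length is uncertain. By CPM alone Mirg was lower, with a mean of 2.04 over the 12 libraries against 4.32 for Neat1. Its level was 4.17, 5.24 and 3.25 CPM in WT vehicle, 4.90, 6.32 and 3.31 in WT DHPG, 3.51, 4.47 and 3.79 in Tsc2+/- vehicle and 3.97, 5.04 and 3.86 in Tsc2+/- DHPG. Replicate 2 was the highest library in every group, and the groups overlapped. The vehicle difference was -0.0848 ± 0.200 and that in DHPG -0.15 ± 0.197 (adjusted p = 0.997).

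Of the Dlk1-Dio3 transcripts, Rian was level across the groups, and Meg3 was highest on average in WT vehicle. Meg3 was 148, 193 and 169 CPM in WT vehicle, 146, 124 and 139 CPM in WT DHPG, 136, 116 and 136 CPM in Tsc2+/- vehicle and 159, 125 and 124 CPM in Tsc2+/- DHPG. WT vehicle lay above both WT DHPG and Tsc2+/- vehicle without overlap, although its lowest library was below the highest of Tsc2+/- DHPG. Rian was 505, 512 and 499 CPM in WT vehicle, 491, 555 and 487 CPM in WT DHPG, 490, 513 and 496 CPM in Tsc2+/- vehicle and 507, 536 and 495 CPM in Tsc2+/- DHPG. Its largest difference over the 4 comparisons was 0.0371 ± 0.0472 on the log2 scale, DHPG against vehicle in Tsc2+/-.

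The vehicle difference of Meg3 was -0.40 ± 0.134, and it was -0.24 without WT vehicle replicate 2, -0.23 without replicate 2 of every group and -0.56 without WT vehicle replicate 1. DHPG gave -0.33 ± 0.135 in WT, with 3 of 3 pairs lower, which did not pass the test (edgeR, adjusted p = 0.768, unadjusted p = 0.0417). Without WT vehicle replicate 1, the lowest of the WT vehicle libraries, the value was -0.48 and passed (adjusted p = 0.00664), as it did without replicate 1 of every group (-0.47, adjusted p = 0.0247). Without WT vehicle replicate 2 it was -0.16 (adjusted p = 0.517). The adjusted p ranged from 0.00664 to 0.990 over the alternatives. The comparison shares its WT vehicle libraries with the one that chose Malat1, so its values are a description and nothing is read from the passes. Meg3 differed by -0.00106 ± 0.135 between the genotypes in DHPG.

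Mirg was low, at 1.61, 2.35 and 3.10 CPM in WT vehicle, 1.52, 1.83 and 1.80 in WT DHPG, 1.98, 2.06 and 1.80 in Tsc2+/- vehicle and 1.72, 2.35 and 2.39 in Tsc2+/- DHPG. Its groups overlapped in all 4 comparisons, and its differences of -0.45 ± 0.294 with DHPG in WT and 0.32 ± 0.293 between the genotypes in DHPG did not pass (adjusted p = 0.834 and 0.997). Exons of Meg3 share 4091 bp with Rtl1 on the opposite strand. The library kit keeps the strand, but whether the counting used it is not given in the sources used here. Of the 7 tested coding genes of the domain and its flanks, 0 were called in any comparison, beside at most 0.0896% of all genes tested. The most abundant of them were Dync1h1 (a dynein heavy chain, 351 CPM in WT vehicle), Ppp2r5c (201) and Begain (175), with vehicle differences of 0.0553 ± 0.0586, 0.0259 ± 0.0533 and 0.0393 ± 0.0605.

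Among the members, Miat separated WT vehicle slices most clearly from the other groups. Its level was 36.1, 48.4 and 42.0 CPM in WT vehicle, 31.7, 22.6 and 27.6 CPM in WT DHPG, 32.9, 23.2 and 27.2 CPM in Tsc2+/- vehicle and 33.2, 27.9 and 23.3 CPM in Tsc2+/- DHPG. Every WT vehicle library was above the other 9 libraries, which held for Miat among the members and for 58 of the 14516 genes tested (0.4%). This includes the contrast used to choose Malat1. The group means were 42.2 ± 6.18 CPM in WT vehicle and 27.3 ± 4.55, 27.8 ± 4.91 and 28.1 ± 4.94 CPM in the other 3 groups, in the order above.

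The vehicle difference of Miat was -0.63 ± 0.159 on the log2 scale, from -0.85 without replicate 1 of every group to -0.40 without replicate 2 of every group. DHPG in WT gave -0.65 ± 0.161, a fold of 0.636 with 3 of 3 pairs lower, and this did not pass over all genes (edgeR, adjusted p = 0.712, unadjusted p = 0.00200). It passed without WT vehicle replicate 1 (-0.86, adjusted p = 4.00e-05) and without replicate 1 of every group (-0.85, adjusted p = 0.00197), and was -0.42 without replicate 2 of every group. Its adjusted p ranged from 4.00e-05 to 0.990 over the alternatives. The WT vehicle libraries are again those of the vehicle comparison, so these values are a description and nothing is read from the passes. In Tsc2+/- DHPG gave 0.0197 ± 0.161 (adjusted p = 0.9998). The genotypes differed by 0.0430 ± 0.164 in DHPG. The same pan-neuronal sums as above apply to Miat and Meg3, and their part was not tested.

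Snhg11, by CPM the most abundant of Snhg11, Snhg14, Gas5 and Snhg1, is enriched in neurons. It was 65.7, 79.2 and 76.1 CPM in WT vehicle, 66.4, 68.6 and 68.5 in WT DHPG, 66.1, 63.7 and 69.2 in Tsc2+/- vehicle and 82.4, 68.0 and 62.3 in Tsc2+/- DHPG. The groups overlapped in every comparison, and its differences were -0.16 ± 0.0838 between the genotypes in vehicle, 0.0616 ± 0.0842 in DHPG, -0.12 ± 0.0844 with DHPG in WT and 0.0952 ± 0.0835 in Tsc2+/-.

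Snhg14 was 10.3, 9.11 and 6.79 CPM in WT vehicle, 7.81, 7.53 and 8.24 CPM in WT DHPG, 6.97, 8.41 and 8.35 CPM in Tsc2+/- vehicle and 7.80, 6.29 and 4.08 CPM in Tsc2+/- DHPG. It had the largest genotype difference among the members in DHPG, -0.40 ± 0.177 with 3 of 3 pairs lower, but ranges overlapped and the test was not passed (edgeR, adjusted p = 0.997). The value was -0.12 without replicate 3 and -0.63 without replicate 1. DHPG in Tsc2+/- gave -0.41 ± 0.174 (adjusted p = 0.9998). The 4 dentate markers gave 39.3 to 45.0 CPM in WT DHPG and 22.1 to 28.2 CPM in Tsc2+/- DHPG, with 0 of the 4 at 0, and their part in these values was not tested. Exons of Snhg14 share 2800 bp with Snrpn, 1856 bp with Snurf and 734 bp with Ipw on the same strand and 267 bp with Ube3a on the other, so its counts are uncertain. Of 8 coding genes of its domain 0 were called, beside at most 0.0896% of all genes tested. Snurf (893 CPM over all libraries), Ndn (211) and Ube3a (69.1) differed by 0.0334 ± 0.0535, -0.0377 ± 0.0553 and 0.0787 ± 0.117 in vehicle.

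Gas5 was 19.02, 20.4 and 24.4 CPM in WT vehicle, 20.9, 17.9 and 18.6 in WT DHPG, 15.7, 21.5 and 18.3 in Tsc2+/- vehicle and 16.3, 20.5 and 12.6 in Tsc2+/- DHPG. Its genotype difference was -0.21 ± 0.138 in vehicle and -0.23 ± 0.142 in DHPG (edgeR, adjusted p = 0.997), with overlapping ranges. Both values moved with single libraries. That in vehicle was -0.0256 without WT vehicle replicate 3, and that in DHPG was -0.0360 without Tsc2+/- DHPG replicate 3 and -0.39 without Tsc2+/- DHPG replicate 2. Snhg1, which lies 118 bp from Slc3a2 in the annotation, was 6.79, 5.86 and 6.20 CPM in WT vehicle, 6.15, 6.48 and 4.59 CPM in WT DHPG, 6.53, 6.04 and 5.50 CPM in Tsc2+/- vehicle and 5.99, 5.86 and 3.99 CPM in Tsc2+/- DHPG. Its differences were -0.0629 ± 0.170 between the genotypes in vehicle and -0.12 ± 0.175 in DHPG (adjusted p = 0.997). In Tsc2+/- DHPG the third library was the lowest of the 3 for every member except Mirg.

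Other transcripts of the same kinds were read in the same way, from lists that were chosen with results of these data known. Of 10 tested further snoRNA host lncRNAs 0 were called in any of the 4 comparisons, beside at most 0.0896% of all genes tested. Of these hosts 8 of 10 lay below 0 for genotype in vehicle and 7 of 10 above 0 in DHPG. Their medians were log2 -0.13 and 0.14, beside -0.00206 and -0.000257 over all genes tested. The most abundant of these hosts were Snhg12 (11.9 CPM), Snhg5 (7.49) and Snhg6 (4.11), with vehicle differences of -0.10 ± 0.124, -0.38 ± 0.177 and -0.0323 ± 0.215. Of 15 TOP mRNAs 0 were called, beside the same share of all genes, and nothing is read from either count of calls. Of the TOP mRNAs 13 lay below 0 in vehicle (median -0.0683) and 6 in DHPG (median 0.0118). Among them Eef1a1 and Eef2, both elongation factors, differed by -0.00894 ± 0.0466 and 0.0244 ± 0.0453 in vehicle, and the ribosomal protein mRNA Rpl3 by -0.13 ± 0.0561.

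Of 16 further brain lncRNAs tested, 0 were called in any comparison. The shares of all genes called, at most 0.0896%, stand beside every count of calls in this paragraph, and nothing is read from these counts. The most abundant of these were 2900097C17Rik (2080 CPM over all libraries), Peg13 (285 CPM), which is imprinted, and Tug1 (135 CPM), with vehicle differences of -0.0458 ± 0.0471, 0.0229 ± 0.0492 and -0.0300 ± 0.0593. Of 12 speckle and paraspeckle proteins 0 were called, and their summed level was 1446 to 1549 CPM over the 12 libraries. The most abundant, Srrm2, Hnrnpk and Son, differed by 0.13 ± 0.0548, 0.0449 ± 0.0510 and 0.0813 ± 0.0543 in vehicle. The 13 nuclear intron-retaining mRNAs also gave 0 calls, and Srsf5, Ogt and Luc7l among them differed by -0.0493 ± 0.0532, 0.0586 ± 0.0653 and -0.0956 ± 0.0754. Over the 427 other annotated lncRNAs tested, 0 were called in any of the 4 comparisons, beside at most 0.0896% of all genes. Their median vehicle difference was -0.0285. The nearest tested genes on either side of the members were 14 genes beside the members themselves. Of these, 0 were called in any of the 4 comparisons, beside the same shares of all genes. The largest values were those of Atp10a, before Snhg14 (-0.58 ± 0.343 for genotype in vehicle, adjusted p = 0.991) and of Dlk1, the paternally expressed gene before Meg3 (0.40 ± 0.135 with DHPG in Tsc2+/-, adjusted p = 0.9998).

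For genotype in vehicle, 13 of 14516 genes were called at an adjusted p under 0.1 (0.0896%), 3 of them lower (0.0207%). Malat1 is the only member inside this call, and all other members were outside it. Malat1 left the call with no replicate block, where 6 genes were called, and in the other 6 fits named with its values. All 10 members lay below 0, with a median of -0.18. The sign turned for Snhg14 without Tsc2+/- vehicle replicate 1 (0.0670) and without replicate 1 of every group (0.0829), for Snhg1 without WT vehicle replicate 3 (0.0686) and for Mirg without replicate 3 of every group (0.0260). Groups did not overlap for Malat1, Meg3 and Miat, all lower, beside 4.19% of all genes. Since this contrast chose the list, nothing is read from these counts.

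For genotype in DHPG, 0 of 10 members were called, beside 7 genes or 0.0482% of all tested. Of the members 6 lay below 0 and 4 above (median -0.0625), and none had groups that did not overlap, beside 9.44% of all genes. At an unadjusted p under 0.05 there were 2 members, Malat1 and Snhg14, beside 4.64% of all genes, and with no replicate block neither Malat1 nor Snhg14 was under it.

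For DHPG against vehicle in WT, 0 members and 0 genes (0%) were called by edgeR, with 936 genes at an unadjusted p under 0.05, and by DESeq2 also 0. Of the members 8 lay below 0 (median -0.15), and groups did not overlap for Meg3 and Miat, both lower, beside 4.92% of all genes. This comparison shares the WT vehicle libraries with the contrast that chose Malat1, so nothing is read from these counts. In Tsc2+/- DHPG gave 0 members and 0 genes (0%) by either tool, with 627 genes at an unadjusted p under 0.05 in edgeR. There 4 members lay below 0 and 6 above (median 0.0284), and none had groups that did not overlap, beside 8.69% of all genes. The Tsc2+/- vehicle libraries are likewise shared with the choosing contrast, and nothing is read from these counts either. The difference between the DHPG changes of the genotypes, Tsc2+/- minus WT, is given without a test since it contains the vehicle contrast. It was 0.67 ± 0.228 for Miat, 0.58 ± 0.409 for Mirg, 0.40 ± 0.190 for Meg3 and 0.25 ± 0.0926 for Malat1. Snhg11 had 0.22 ± 0.119 and Rian 0.0238 ± 0.0669. Below 0 were Snhg14 (-0.29 ± 0.246), Neat1 (-0.0632 ± 0.281), Snhg1 (-0.0610 ± 0.244) and Gas5 (-0.0173 ± 0.198). Over all genes, 0 were called for this difference by edgeR.

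**Figure D3:**
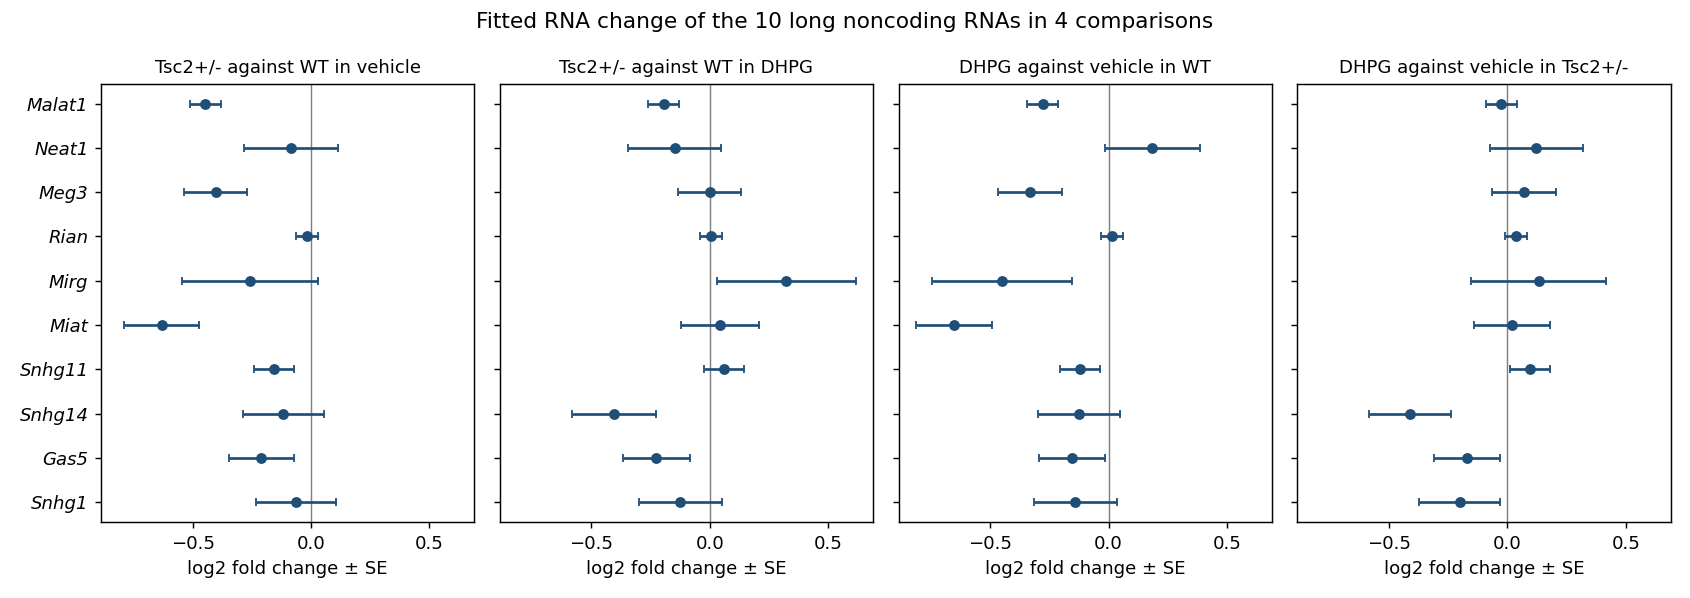
Fitted log2 fold change of RNA (points) with its SE (bars) for each member in 4 comparisons, with 0 as a vertical line. Miat (-0.63 and -0.65) and Meg3 (-0.40 and -0.33) lie left of 0 for genotype in vehicle and for DHPG in WT, which share the WT vehicle libraries, and near 0 in the other 2 comparisons, while Rian lies near 0 in all 4.

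The genes most like Malat1 over the 12 RNA libraries were sought by Pearson's r of log2 CPM, after the mean of each replicate number had been removed, among 9240 genes with a mean of at least 10 CPM. These values are a description, since the libraries share depth, batch and the groups themselves. The highest were Cdk9, a kinase of transcription elongation (r = 0.874), Aptx, a DNA repair enzyme (0.872), Wdr37 (0.871), Zcchc17 (0.849) and Tmpo, a protein of the nuclear lamina (0.848). Their group means moved less than those of Malat1: Cdk9 was 61.6 ± 3.13 CPM in WT vehicle and 58.0 ± 2.55 in Tsc2+/- vehicle, and Aptx 21.6 ± 1.54 and 18.8 ± 0.459. Among the members, Miat had r = 0.808 and was 18th, Meg3 had 0.757 and was 36th, Gas5 had 0.643, Snhg11 0.397 and Rian -0.0396.

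Footprints within coding sequence could be read only for Snhg11. Of the 1882 annotated lncRNAs in the RNA table, 28 were also rows of the footprint table. Snhg11 had 19, 8 and 18 footprint counts in WT vehicle, 22, 12 and 10 counts in WT DHPG, 17, 8 and 12 counts in Tsc2+/- vehicle and 11, 6 and 2 counts in Tsc2+/- DHPG. These are few reads, and the counts of replicates 2 and 3 were even in all 8 libraries. Its footprint level was 1.54 ± 0.801 CPM (SD over 12 libraries of 4 groups), beside 69.7 CPM of RNA. The ratio of the 2 levels was 0.0221, beside a median of 1.05 over the 12785 genes tested in both, and 3 genes had a lower ratio. Footprints were counted only over the annotated reading frame and RNA over the whole transcript, so the ratio does not compare equal lengths.

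Footprints of Snhg11 differed by -0.75 ± 0.543 between the genotypes in DHPG (edgeR over 12877 genes, adjusted p = 0.9995, beside 0.0155% of genes called) and by -0.57 ± 0.477 in vehicle (adjusted p = 0.868, beside 0.0233%). With DHPG they differed by -0.60 ± 0.467 in WT (adjusted p = 0.833, beside 0.0311%) and by -0.78 ± 0.553 in Tsc2+/- (adjusted p = 0.9999, beside 0%). With the counts of replicates 2 and 3 halved, Snhg11 no longer passed the filter on low counts.

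**Figure D4:**
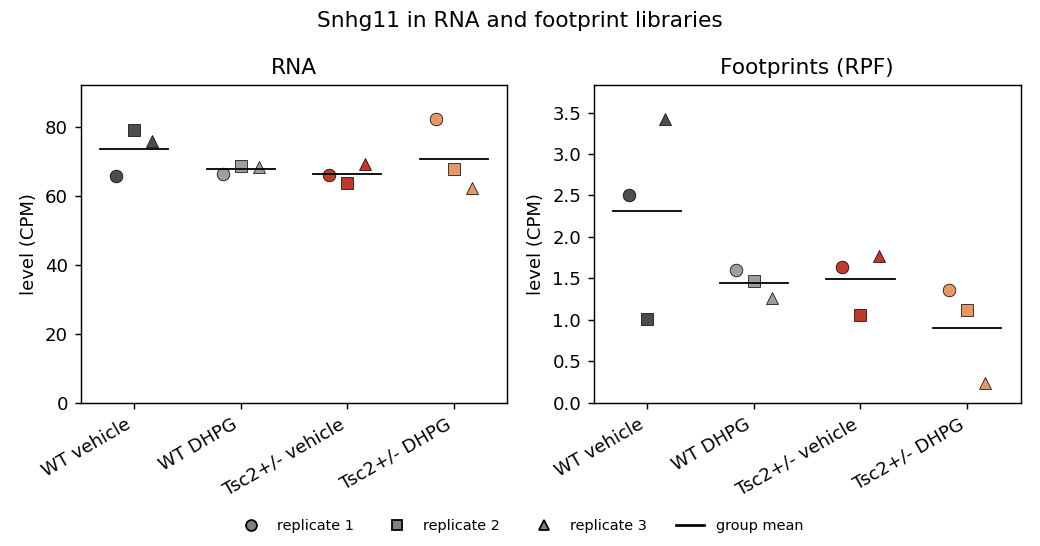
Snhg11 level in CPM in RNA libraries (left) and footprint libraries (right) of the 4 groups, with 1 symbol per replicate number and the group mean as a bar, both axes starting at 0. RNA lies between 62.3 and 82.4 CPM, and footprints between 0.236 and 3.42 CPM.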

How the data were processed

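RNA-seq and ribosome profiling (RPF) of hippocampal slices gave 24 libraries in 8 groups of 3, assigned from the labels. The authors deposited expected counts from RSEM, rounded to whole numbers. Per the submitters' processing notes, cutadapt, Bowtie2, TopHat2 and DESeq2 were also used, with the mm10 build, and per the study's methods RNA reads were counted over whole transcripts and RPF reads over coding sequence with both ends trimmed. The authors had removed duplicates by molecular identifiers. No column was left without a sample.

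Genes were kept with filterByExpr at a minimum count of 10, scaled by TMM and tested by the two-sided quasi-likelihood F test of edgeR 4.0.16 in R 4.3.3. The model held terms for group and replicate number and took the 12 libraries of each assay together. After Benjamini-Hochberg adjustment across the genes tested, an adjusted p under 0.1 was called. SE values came from the F statistic, and 95% intervals are 1.96 SE. Lengths are merged RefSeq exons of GRCm38.p6, which matched 23696 of 23845 rows, and 27 rows were named by a date. Alternatives were DESeq2 1.42.0, ComBat in sva 3.50.0 by replicate number followed by DESeq2, another scaling, no filter, no block, the groups compared alone, an adjusted p under 0.05, and left-out libraries. Halving the RPF counts of replicates 2 and 3 was chosen after seeing the data. The fit was tested on simulated counts.

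The members and lists were chosen with earlier results of these data known. Named genes were the members, Tsc2, the 5 genes most like Malat1, the 3 most abundant genes of each list, lncRNAs called in comparisons not used to choose the members (there were none), and neighbours, some of which are not reported here. Per the study's methods the libraries of a group are biological replicates, each made from slices pooled over several mice, so the spread between libraries is that between pools.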

Additional observations from a re-analysis of the deposited data

How the results depend on the processing

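Of 840 recomputed changes of the members, 769 kept their sign and either moved by less than 1 SE or, where tested, stayed on their side of the threshold, 41 changed sign, 19 kept their sign but moved by more than 1 SE, 7 were those that took Malat1 out of the vehicle call, and 4 passed the threshold where they had not, the values of Meg3 and Miat for DHPG in WT given in the report. With single libraries or replicate numbers left out, the log2 values spanned for genotype in vehicle -0.54 to -0.36 for Malat1, -0.49 to 0.0260 for Mirg, -0.18 to 0.0686 for Snhg1 and -0.32 to 0.0829 for Snhg14, for DHPG in Tsc2+/- -0.16 to 0.0990 for Malat1, -0.34 to 0.0168 for Gas5, -0.0546 to 0.17 for Meg3, -0.0955 to 0.14 for Miat, -0.0345 to 0.30 for Mirg and -0.0585 to 0.21 for Snhg11, for DHPG in WT -0.29 to 0.0304 for Gas5, -0.0385 to 0.0381 for Rian, -0.29 to 0.0107 for Snhg1 and -0.33 to 0.00257 for Snhg14, for genotype in DHPG -0.13 to 0.0783 for Meg3, -0.0756 to 0.18 for Miat, -0.0154 to 0.047 for Rian and -0.0907 to 0.17 for Snhg11. Meg3 for genotype in DHPG was 0.00126 with no replicate block and 4.26e-05 with no filter, and Miat for DHPG in Tsc2+/- was -0.000977 after ComBat. The number of RNA genes called for genotype in vehicle was 6 with no replicate block and 7 after ComBat, and 7 to 31 with libraries left out (31 without WT vehicle replicate 2). For genotype in DHPG it was 4 with no block, 17 with no filter, 14 with the groups compared alone and 5 to 15 with libraries left out (15 without WT vehicle replicate 3). For DHPG in WT it was 6 with no filter and 0 to 112 with libraries left out (112 without WT vehicle replicate 2), for DHPG in Tsc2+/- 2 with the groups compared alone and 0 to 1 with libraries left out (1 without Tsc2+/- DHPG replicate 2), and for the interaction 1 with no filter and 0 to 2 with libraries left out (2 without WT vehicle replicate 1). RPF genes called for genotype in DHPG numbered 2 to 47 with libraries left out (47 without replicate 3). The cause of these shifts was not tested. Ranked by Spearman's rho, 1 of the 5 genes most like Malat1 was among the 5 highest. Same-numbered RNA libraries deviated together with r from 0.0228 to 0.143 over 18 pairs, and 12 of 12 libraries correlated best with one of their own number, a hint from the data that the numbers share a batch; without that block in the model the calls were the 6 and 4 given above, and Malat1 (-0.45 ± 0.179) left the vehicle call, as it did after ComBat (-0.38). Depth limits Mirg, Neat1, Snhg14 and Snhg1, and the footprints of Snhg11.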
